A study of Mus musculus with 35 samples.

Results

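The 9 genes described here are those of the nuclear factor erythroid 2-related factor 2 (NRF2) antioxidant response: Nqo1, Hmox1, Gclc, Gclm, Txnrd1, Srxn1, Slc7a11, Nfe2l2 and Keap1. They were taken by symbol from 54446 genes of a table of TPM, a level of transcripts scaled to transcript length and to the library's total. The reason was that mean Nqo1 lay on opposite sides of 2D epiblast stem cells (EpiSCs) in the 2 kinds of 3D culture. Nqo1 in the cultures is therefore given as a description, with no test. The study grew mouse pluripotent cells as self-renewing 3D epithelia and profiled them next to 2D cultures and the early embryo.

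Each of the 9 groups had 3 libraries, and the labels give all of them as wild-type mouse. Embryonic stem cell (ESC)-derived 3D EpiSCs and embryo-derived 3D EpiSCs were grown in Matrigel with FGF2, Activin A, the Wnt pathway inhibitor XAV and Noggin, which blocks BMP ligands. For 2D EpiSCs, ESCs were converted with FGF2 and Activin A, and epiblast-like cells (EpiLCs), a formative state, were ESCs given the same factors for 48 h. Per the study's methods, 2D EpiSCs grew on fibronectin in a base medium with added non-essential amino acids. The 3D cultures had a different base medium, with no such supplement listed, and more Activin A. Growth in 3D and medium therefore cannot be told apart between them. The embryo groups were the inner cell mass (ICM) at embryonic day 3.5 (E3.5) and the epiblast at daily steps from E4.5 to E7.5, dissected from embryos that the labels give as CD-1 of either sex. Per the study's methods the matings were of CD1 or Pdgfrα:H2B-GFP mice, a reporter line used to tell E4.5 epiblast from primitive endoderm, and sex was not determined, so stage and mouse line cannot be told apart at E4.5. Also per the methods, embryo-derived cultures began from E5.5 epiblasts of CD1 mice or of LifeAct-GFP mice, which carry a fluorescent reporter transgene, and the other cultures from ESCs, so origin and mouse line cannot be told apart between them. Cultures were sequenced from polyadenylated RNA and embryos from low-input total RNA depleted of ribosomal sequence, so levels in cultures and embryos are set side by side only.

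The 27 libraries each listed between 20324 and 26751 genes above 0 TPM, and the study's methods name 1 target depth for them all. The reads of each library are not in a TPM table, so counting error per library was not computed. All 7 epiblast markers were above 2 TPM in every library except at E3.5, where 6 were. In 3 groups a pair of replicates lay closer to each other than other replicates did (ESC-derived 3D EpiSC 1 and 2, embryo-derived 3D EpiSC 2 and 3, 2D EpiSC 1 and 2). Their median absolute log2 difference was 0.0569 to 0.0649, against 0.131 to 0.271 in the 9 other pairs of cultures. Each embryo replicate pooled several embryos, per the methods, and nothing says whether culture replicates were separate cultures, so p-values measure the spread between libraries, which may be technical. In bulk RNA, fewer cells of a type and less RNA per cell cannot be told apart.

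NRF2, encoded by Nfe2l2, is a transcription factor that KEAP1 binds and delivers for degradation. Oxidants and electrophiles modify KEAP1, and NRF2 then accumulates as protein and activates genes that carry an antioxidant response element. Its targets make and recycle glutathione and thioredoxin, detoxify quinones and break down heme. The cystine importer gene Slc7a11 is also a well-known target of ATF4, the transcription factor of the integrated stress response, which answers amino acid shortage and protein-folding stress.

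RefSeq promoters on GRCm38.p6 were found for 7 members, and 4 are shown because they hold, or lack, the elements through which these 2 factors are known to act. Each sequence is the 250 bases before an annotated start, read 5′ to 3′ on the gene's strand. Capitals mark the antioxidant response element core TGACNNNGC or the amino acid response element TGATGCAA, searched on both strands.
Slc7a11, chr3:50443614-50443863, minus strand: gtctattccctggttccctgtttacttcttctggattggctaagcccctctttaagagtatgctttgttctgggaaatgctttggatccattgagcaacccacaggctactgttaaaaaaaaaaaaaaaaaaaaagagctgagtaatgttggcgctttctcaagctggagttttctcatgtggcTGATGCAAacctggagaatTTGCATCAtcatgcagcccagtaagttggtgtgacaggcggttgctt
Nqo1, chr8:107403206-107403455, minus strand: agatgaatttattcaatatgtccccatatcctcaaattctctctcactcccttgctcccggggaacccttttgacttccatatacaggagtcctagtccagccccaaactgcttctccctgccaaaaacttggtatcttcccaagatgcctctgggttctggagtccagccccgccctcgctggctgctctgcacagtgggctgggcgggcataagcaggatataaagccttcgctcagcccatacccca
Gclm, chr3:122245307-122245556, plus strand: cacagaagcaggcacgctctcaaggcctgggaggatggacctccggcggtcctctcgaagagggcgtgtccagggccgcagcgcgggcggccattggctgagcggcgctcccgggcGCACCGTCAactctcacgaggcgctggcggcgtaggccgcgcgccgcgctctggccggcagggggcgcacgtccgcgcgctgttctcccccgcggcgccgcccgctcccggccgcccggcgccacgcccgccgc
Nfe2l2, chr2:75704664-75704913, minus strand: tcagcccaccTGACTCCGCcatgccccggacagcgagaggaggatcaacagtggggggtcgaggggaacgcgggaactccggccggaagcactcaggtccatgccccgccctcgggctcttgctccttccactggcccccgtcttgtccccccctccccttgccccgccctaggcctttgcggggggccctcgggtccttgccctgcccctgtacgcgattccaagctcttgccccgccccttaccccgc
Slc7a11 carried the amino acid response element at 2 places, on opposite strands, starting 66 and 47 bases before the start. That element was present in 0.895% of the 32851 RefSeq promoters, counted over 250 bases before and 50 after each start. Gclm and Nfe2l2 each carried 1 antioxidant response element core, a short motif present in 12.4% of promoters. Srxn1 and a second start of Txnrd1 held the same core, which made 4 of 7 members. The Nqo1 window held none of these letters, nor the xenobiotic response element core GCGTG, present in 32.4% of promoters. A match describes the letters of a short window, and Hmox1 and Gclc were not examined.

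Nqo1 (chr8:107388225-107403206 on mm10, minus strand) encodes the enzyme that reduces quinones by a 2-electron step and is among the best-known NRF2 targets. The ESC-derived 3D EpiSC libraries held 33.5, 30.5 and 10.3 TPM, and the embryo-derived 3D EpiSC libraries 2.04, 2.39 and 2.12 TPM. The 2D EpiSC libraries lay at 10.5, 10.6 and 10.0 TPM, and the EpiLC libraries at 60.8, 74.0 and 56.6 TPM. The embryo-derived cultures were below every other culture, the EpiLCs were above every other culture, and replicate 3 of the ESC-derived 3D EpiSCs fell within the range of the 2D EpiSCs.

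As differences of mean log2(TPM + 1), Nqo1 was 1.02 higher in ESC-derived 3D EpiSCs than in 2D EpiSCs, and 1.54 higher without replicate 3. In embryo-derived 3D EpiSCs it was lower than in 2D EpiSCs, at -1.84, with no overlap. The mean of ESC-derived cultures was 24.8 TPM ± 12.6 (SD, n = 3) and that of embryo-derived cultures 2.18 TPM ± 0.185 (SD, n = 3), an 11.4-fold difference. Against EpiLCs the log2 differences were -2.50 for 2D EpiSCs, -1.48 for ESC-derived and -4.34 for embryo-derived 3D EpiSCs. The order of mean levels was EpiLC, ESC-derived 3D EpiSC, 2D EpiSC, and then, far lower, the embryo-derived 3D EpiSCs together with the embryo groups.

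**Figure D1:**
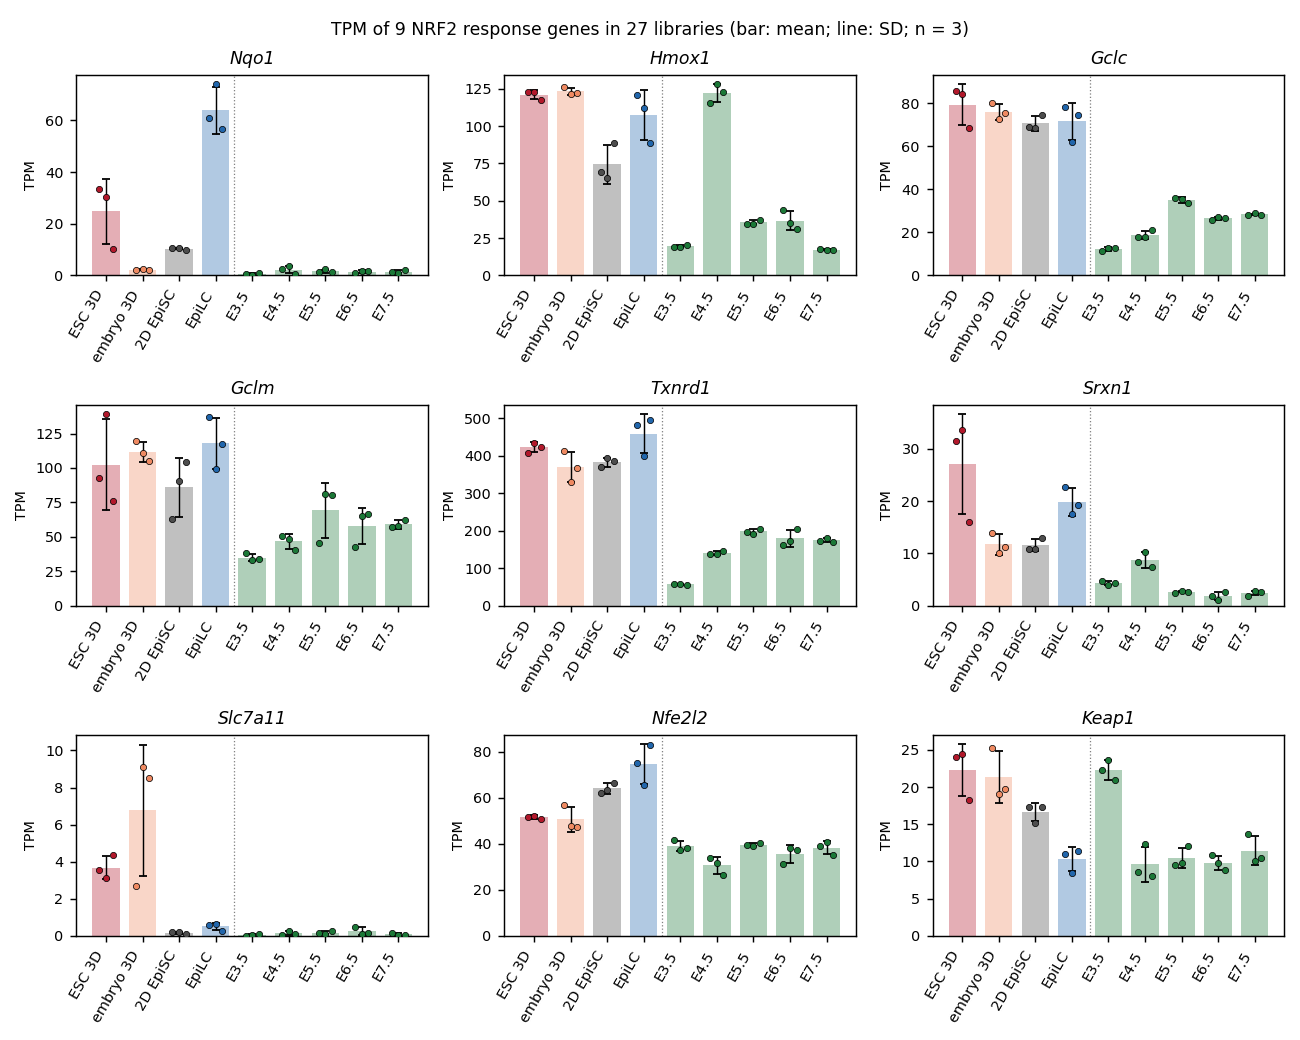
TPM of the 9 genes (1 panel each, linear axis from 0) in the 4 culture groups and, right of the dotted line, the 5 embryo stages. Bars are means, lines the SD and points the 3 libraries. Nqo1 has bars of 63.8 TPM in EpiLCs and 2.18 TPM in embryo-derived 3D EpiSCs, while Hmox1 peaks at 122 TPM among the embryo stages at E4.5.

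In the embryo Nqo1 stayed between 0 and 3.54 TPM. The E4.5 libraries held 2.42, 3.54 and 0.642 TPM, and the E3.5 libraries 0.523, 0 and 0.892 TPM. The embryo-derived 3D EpiSC mean lay within the ranges of the E4.5, E5.5 and E7.5 libraries by value. From E4.5 downwards each ordered group overlapped with the next, so no order between neighbours was resolved beyond the spread. Some groups further apart did separate by value. The embryo-derived 3D EpiSC libraries were above every E6.5 and E3.5 library, and the E5.5 and E7.5 libraries were above every E3.5 library.

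The comparison of each 3D culture with 2D EpiSCs sets self-renewing epithelia in Matrigel beside the conventional primed culture. Slc7a11 and Hmox1 were higher in both kinds of 3D culture than in every 2D EpiSC library, Nfe2l2 was lower in both, and Srxn1 was higher in the ESC-derived cultures. With non-overlapping libraries and a log2 difference over 1, ESC-derived 3D EpiSCs had 2 of 9 members above 2D EpiSCs and 0 below, where 0.624% of 11541 genes were above and 9.14% below. Embryo-derived 3D EpiSCs had 1 member above and 1 below, with 1.07% of genes above and 7.8% below. The median log2 difference over all genes was -0.21 in the first comparison and -0.08 in the second. The members were chosen on these comparisons and nothing is read from the counts.

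Slc7a11 (chr3:49892526-50443614, minus strand) encodes the light chain of the cystine/glutamate antiporter, which supplies cysteine for glutathione. The ESC-derived 3D EpiSC libraries held 3.56, 3.10 and 4.36 TPM and the embryo-derived libraries 2.69, 9.12 and 8.51 TPM. The 2D EpiSC libraries were at 0.200, 0.183 and 0.0869 TPM, and the EpiLC libraries at 0.581, 0.660 and 0.281 TPM. Every 3D library was thus above every 2D one, and replicate 1 of the embryo-derived cultures lay with the ESC-derived ones. Log2 differences from 2D EpiSCs were 2.01 for ESC-derived and 2.62 for embryo-derived 3D EpiSCs, which a pseudocount of 0.1 raised to 3.90 and 4.59 because the 2D levels were so low. Slc7a11 passed the filter on low values (above 2 TPM in at least 3 libraries) only through the 3D libraries.

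Hmox1 (chr8:75093621-75100589, plus strand) encodes heme oxygenase 1, which opens the heme ring and frees iron. Its libraries held 123, 123 and 117 TPM in ESC-derived 3D EpiSCs, 126, 121 and 123 TPM in embryo-derived ones, and 69.1, 65.0 and 89.0 TPM in 2D EpiSCs. Both 3D cultures were alike in value and above 2D EpiSCs, with log2 differences of 0.71 and 0.73. EpiLCs, at 121, 112 and 88.7 TPM, overlapped the ESC-derived 3D EpiSCs and had 1 library below the highest 2D EpiSC library.

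Srxn1 (chr2:152105516-152111376, plus strand) encodes sulfiredoxin, which rescues over-oxidized peroxiredoxins. The ESC-derived 3D EpiSC libraries held 31.5, 33.6 and 16.0 TPM, the embryo-derived libraries 13.9, 9.99 and 11.2 TPM and the 2D EpiSC libraries 10.8, 10.9 and 12.9 TPM. As for Nqo1, replicates 1 and 2 of the ESC-derived cultures were high and replicate 3 much lower. The log2 difference from 2D EpiSCs was 1.10, and 0.96, 0.91 or 1.42 without replicate 1, 2 or 3. The embryo-derived cultures differed from 2D EpiSCs by 0.01 and overlapped them.

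The regulators moved less. Nfe2l2 (chr2:75675513-75704641, minus strand) was at 51.8, 52.2 and 50.7 TPM in ESC-derived and 57.0, 47.6 and 47.3 TPM in embryo-derived 3D EpiSCs, against 62.2, 63.4 and 66.5 TPM in 2D EpiSCs. All 3D libraries were below all 2D ones, and the log2 difference for the ESC-derived cultures, -0.31, shrank to -0.09 when TPM values were rescaled so that the median gene did not differ. Keap1 (chr9:21229730-21239361, minus strand) held 24.1, 24.4 and 18.2 TPM in ESC-derived cultures, 25.3, 19.1 and 19.7 TPM in embryo-derived cultures and 17.4, 15.2 and 17.3 TPM in 2D EpiSCs. Its 3D libraries were all above the 2D ones, by log2 differences of less than 1.

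Of the remaining members, Gclc (chr9:77754535-77794485, plus strand) and Gclm (chr3:122245557-122270732, plus strand) encode the catalytic and modifier subunits of glutamate-cysteine ligase, the first step of glutathione synthesis. Across all 12 culture libraries Gclc ranged from 62.0 to 85.7 TPM and Gclm from 62.7 to 139 TPM. Txnrd1 (chr10:82833951-82897712, plus strand), the cytosolic thioredoxin reductase, had the highest level of the 9 genes, 330 to 496 TPM. None of these 3 separated the culture groups by a log2 unit in any comparison. They thus differed by less than 1 log2 unit between cultures whose Nqo1 levels did not overlap, but their levels were not all alike. Txnrd1 libraries did not overlap between 2D EpiSCs and EpiLCs (-0.26) or between ESC-derived 3D and 2D EpiSCs (0.14). Gclm libraries did not overlap between embryo-derived 3D and 2D EpiSCs (0.41).

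**Figure D2:**
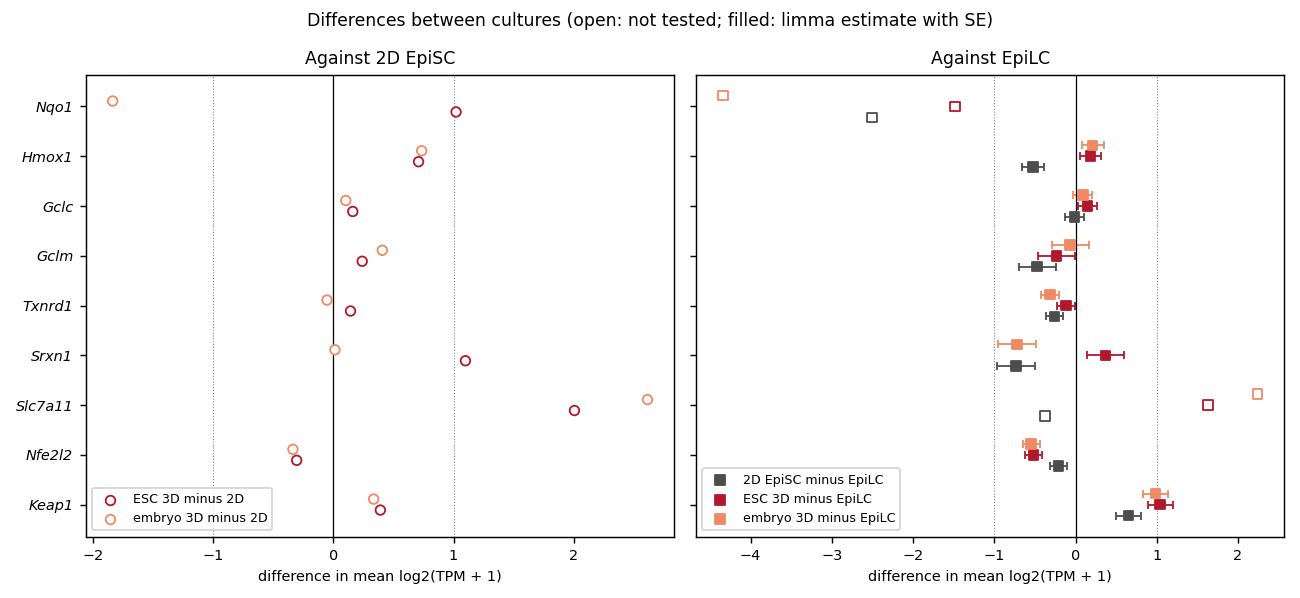
Difference in mean log2(TPM + 1) of each gene against 2D EpiSCs (left, open circles, not tested) and against EpiLCs (right, filled squares, limma estimate with SE). Nqo1 and Slc7a11, with open squares at right, have no test. Nqo1 lies at 1.02 and -1.84 on the left, while Slc7a11 lies at 2.01 and 2.62.

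Comparing the 2 kinds of 3D culture directly, Nqo1 and Srxn1 were the members whose libraries did not overlap and differed by over 1 log2 unit, both higher in ESC-derived cultures, by 2.86 and 1.09, and by 3.38 and 1.41 without ESC-derived replicate 3. By the same rule 2.01% of all genes had more RNA in the ESC-derived cultures and 1.83% had less. The Srxn1 difference was 0.95, 0.90 or 0.99 without ESC-derived replicate 1, ESC-derived replicate 2 or embryo-derived replicate 2. Slc7a11, 0.61 lower on the log2 scale in ESC-derived cultures, overlapped between the groups through embryo-derived replicate 1 and separated at -1.08 without it.

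Against EpiLCs, which precede the primed state, each EpiSC culture was tested with limma over 11541 genes, calling a gene at an adjusted p under 0.05 and a log2 fold change over 1. Slc7a11 was 1.63 higher on the log2 scale in ESC-derived 3D EpiSCs and 2.24 higher in embryo-derived ones, with every 3D library above every EpiLC library. Since it entered the fit only through its 3D libraries, it had to differ, and these values are a description with no test. Of the 7 members left besides Nqo1 and Slc7a11, Keap1 rose in the ESC-derived cultures, and no other was called in any EpiSC culture.

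Keap1 was at 11.0, 8.44 and 11.4 TPM in EpiLCs, below all EpiSC libraries. The log2 fold changes were 1.04 in ESC-derived 3D EpiSCs (SE 0.15, adjusted p = 0.000202), 0.99 in embryo-derived ones (adjusted p = 0.000201) and 0.65 in 2D EpiSCs (adjusted p = 0.00316). Only the first was past the fold threshold, and it dropped to between 0.92 and 0.98 without ESC-derived replicate 1 or 2 or EpiLC replicate 2. The embryo-derived value was past it, at 1.04 to 1.06, without embryo-derived replicate 2 or 3 or EpiLC replicate 1 or 3. Keap1 thus lay at the fold threshold in both 3D cultures, and whether the cultures differ in this change was not tested.

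Of these 7 members ESC-derived 3D EpiSCs thus had 1 called higher and 0 lower, against 5.33% of genes higher and 7.11% lower. In embryo-derived ones limma called 0 of 7, with 4 at an unadjusted p under 0.05 and 4 at an adjusted one, against 10.5% of genes higher and 8.28% lower. In 2D EpiSCs it called 0 of 7, with 4 at an unadjusted p under 0.05 and 3 at an adjusted one, against 15.2% of genes higher and 5.14% lower. Of smaller changes, Nfe2l2 was lower in ESC-derived (-0.52, adjusted p = 0.00212) and embryo-derived 3D EpiSCs (-0.55, adjusted p = 0.000998). Hmox1 (-0.52, adjusted p = 0.0055) and Srxn1 (-0.73, adjusted p = 0.0178) were lower in 2D EpiSCs. Srxn1 (-0.72, adjusted p = 0.0203) and Txnrd1 (-0.31, adjusted p = 0.0282) were lower in embryo-derived 3D EpiSCs.

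The pathway beyond the members was followed in 89 further genes, in lists of regulators, glutathione enzymes, thioredoxin and peroxiredoxin systems, heme, iron and carbonyl enzymes, NADPH supply, superoxide dismutases and catalase, ATF4-arm genes and the aryl hydrocarbon receptor with its targets. In the cultures 79 passed the filter. Against 2D EpiSCs, ESC-derived 3D EpiSCs had 8 above and 4 below (median log2 difference 0.13), where all genes had 0.624% above and 9.14% below. Without ESC-derived replicate 3 these were 7 above and 7 below, with 0.901% and 13.0% of all genes. Embryo-derived 3D EpiSCs had 8 above and 12 below 2D EpiSCs (median -0.12), where all genes had 1.07% and 7.8%. Between the 3D cultures 7 were above and 1 below in the ESC-derived ones (median 0.17, against -0.12 over all genes), and 8 and 2 without ESC-derived replicate 3. Some genes in these counts passed the filter only through the group where they were high, and nothing is read from the counts alone. None of the 14 thioredoxin, peroxiredoxin and glutaredoxin genes, 5 NADPH-supply genes and 3 superoxide dismutase and catalase genes separated from 2D EpiSCs by over 1 log2 unit in either 3D culture.

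The ATF4 arm was higher in both 3D cultures than in 2D EpiSCs: ESC-derived cultures had 5 of its 8 genes above and 1 below, and embryo-derived ones 6 above and 1 below, where 0.624% and 1.07% of all genes were above. Without ESC-derived replicate 3 the first count was 4 above and 1 below. Base medium and amino acid supplement also differed between the 3D and 2D cultures, and their part was not tested. Chac1, which degrades glutathione, held 70.7, 71.0 and 93.1 TPM in ESC-derived and 97.3, 121 and 114 TPM in embryo-derived 3D EpiSCs, against 3.40, 3.03 and 5.33 TPM in 2D EpiSCs. These were log2 differences of 4.03 and 4.53. Trib3, a pseudokinase that restrains ATF4, differed by 2.51 and 3.59, Atf3 by 1.75 and 2.24, and Asns, the asparagine synthetase, by 1.29 and 1.78 (0.89 without ESC-derived replicate 3). Slc3a2, the heavy chain that partners SLC7A11 at the membrane and is counted in the glutathione list, was higher by 1.17 and 1.30 (0.98 without ESC-derived replicate 3). Ddit4 was the gene of the arm that went the other way, at -1.42 in ESC-derived cultures and at -2.10 without replicate 3. ESC-derived cultures lay at -0.09 from embryo-derived ones (-0.77 without replicate 3), so Ddit4 was lower than in 2D EpiSCs in both kinds of 3D culture.

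Tested against EpiLCs, 5 of the 8 ATF4-arm genes rose in ESC-derived and 7 in embryo-derived 3D EpiSCs, with none lower, and 2 rose in 2D EpiSCs, where 5.33%, 10.5% and 15.2% of all genes were called higher. Without ESC-derived replicate 3 the count was 4 in ESC-derived cultures, Asns being the gene lost. Chac1 rose by 3.18 (adjusted p = 0.000368) and 3.68 (adjusted p = 8.17e-05) on the log2 scale in the 3D cultures, and Atf3 by 3.15 (adjusted p = 9.16e-07) and 3.64 (adjusted p = 1.76e-07). The call for Ddit3 in embryo-derived cultures, 1.35 with an adjusted p of 0.0272, was lost in 6 alternatives. All these comparisons share the EpiLC libraries.

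Within the 3D groups the libraries with more Slc7a11 also held more of several ATF4-arm genes, a pattern picked out after the values were seen. Asns was at 250, 246 and 569 TPM in ESC-derived and 241, 634 and 625 TPM in embryo-derived cultures. Ddit3 was at 8.50, 8.36 and 26.6 TPM, and at 8.12, 22.6 and 21.9 TPM. ESC-derived replicate 3 and embryo-derived replicates 2 and 3 were the high libraries for both, as for Slc7a11. ESC-derived replicate 3 was also the low library for Nqo1, Srxn1 and Cbr3 (for Cbr3, 47.7 TPM against 120 and 123 TPM).

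Of 23 glutathione genes compared with 2D EpiSCs, embryo-derived cultures had 1 above and 7 below, where 1.07% of all genes were above and 7.8% below. ESC-derived cultures had 1 above and 1 below, or 1 and 3 without replicate 3, and whether the cultures differ in these counts was not tested. Relative to EpiLCs 11 of the 23 fell in embryo-derived cultures with none higher, where 8.28% of all genes fell. Gpx3, the secreted glutathione peroxidase, was at 0.315, 0.0914 and 0 TPM in embryo-derived cultures, against 17.6, 15.9 and 14.2 TPM in ESC-derived ones and 11.5, 11.4 and 16.7 TPM in 2D EpiSCs. Gpx7, a peroxidase of the endoplasmic reticulum, differed from 2D EpiSCs by -3.18 on the log2 scale. The glutathione transferases Gstm2 (-2.13), Gstm1 (-2.04), Gstt1 (-1.54) and Gstt3 (-1.40) were lower too. Gstm1 was the glutathione gene lower in ESC-derived cultures, at -1.61, with 31.2, 32.4 and 26.1 TPM against 102, 97.4 and 81.6 TPM in 2D EpiSCs.

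Outside glutathione, the carbonyl reductase Cbr3 and the aldo-keto reductase Akr1b8 had, over the culture libraries, the levels most like Nqo1 among pathway genes. Cbr3 was at 120, 123 and 47.7 TPM in ESC-derived 3D EpiSCs, 30.0, 18.5 and 17.7 TPM in embryo-derived ones, 27.6, 27.7 and 25.4 TPM in 2D EpiSCs and 94.3, 121 and 163 TPM in EpiLCs. Akr1b8 was at 16.3, 26.5 and 34.5 TPM in EpiLCs and at most 4.11 TPM in the other cultures. Relative to EpiLCs Akr1b8 changed by -3.70, -2.63 and -4.54 on the log2 scale in 2D, ESC-derived and embryo-derived EpiSCs (adjusted p = 6.12e-07, 1.5e-05 and 1.05e-07). Its paralog-rich family can share reads, so its level is uncertain. Cbr1, a neighbour in function, did the reverse and rose by 1.52 in 2D EpiSCs (adjusted p = 5.46e-07) and 1.77 in ESC-derived ones (adjusted p = 2.06e-07). In embryo-derived cultures Cbr1 lay at -0.30 from 2D EpiSCs, and so above EpiLCs too.

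Ftl1, the ferritin light chain that stores the iron heme oxygenase frees, was listed at 2397 TPM ± 116.8 (SD, n = 3) in embryo-derived cultures, against 808 TPM in ESC-derived ones, 753 TPM in 2D EpiSCs and 922 TPM in EpiLCs. These are 2.97-, 3.18- and 2.6-fold differences. The near-identical copies Ftl1-ps1 and Ftl1-ps2 can take Ftl1 reads, and Ftl1-ps2 was listed at 106 to 206 TPM in the libraries of ESC-made cultures and at 0.426 to 4.51 TPM in embryo-derived cultures and embryos. Summed over the copies, the folds were 1.55, 1.82 and 1.39, so the size of the Ftl1 difference is uncertain.

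Among 11 regulators of NRF2, 1 was lower than in 2D EpiSCs in ESC-derived cultures and 3 in embryo-derived ones, where 9.14% and 7.8% of all genes were lower. Nothing is read from these counts. The 1 in ESC-derived cultures was Bach2, a repressor of the same elements (-1.33), which passed the filter only through 2D EpiSCs. Ahr, the aryl hydrocarbon receptor that also drives Nqo1, was 6.24 TPM in ESC-derived cultures against 21.1 TPM in 2D EpiSCs, a log2 difference of -1.60. ESC-derived cultures lay at -0.31 from embryo-derived ones, so Ahr was lower than in 2D EpiSCs in both kinds of 3D culture. Maff, a small MAF partner of NRF2, rose relative to EpiLCs by 2.23 in 2D (adjusted p = 0.000129) and 1.50 in ESC-derived 3D EpiSCs (adjusted p = 0.00311).

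By Pearson r of log2(TPM + 1) over the 12 culture libraries, the genes most like Nqo1 of 11540 were Fam234b (0.98), Angptl4 (0.97), Tmem54 (0.97), Pla2g10 (0.97) and Zfp972 (0.97). Tmem54, for example, was at 49.4, 50.8 and 49.7 TPM in EpiLCs and 1.37, 3.40 and 3.62 TPM in embryo-derived cultures. Fam234b and Zfp972 were at most 4.19 and 4.63 TPM in any culture library, so their r values rest on low levels. Akr1b8 (0.92) and Cbr3 (0.91) were the closest pathway genes. Among members r was 0.70 for Txnrd1 and Srxn1, 0.63 for Nfe2l2, 0.18 for Gclm, -0.03 for Gclc, -0.05 for Hmox1, -0.53 for Slc7a11 and -0.62 for Keap1. The 12 points are 3 libraries of each of 4 groups, so the values mostly describe how group levels were ordered.

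**Figure D3:**
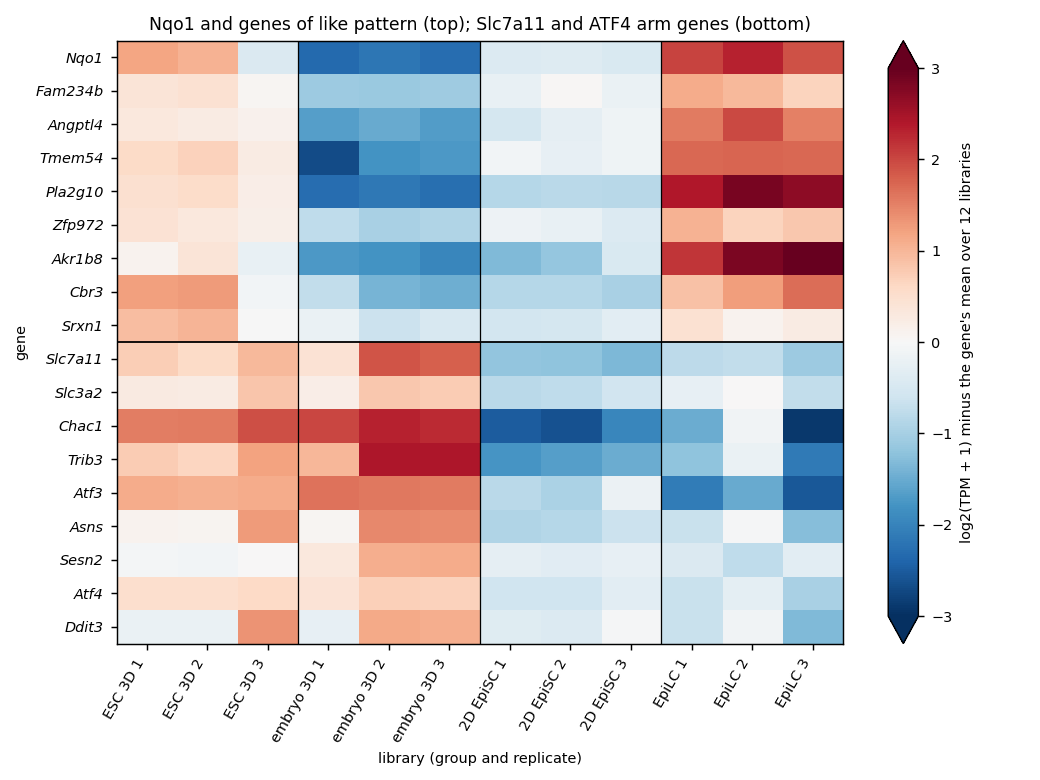
Heat map of log2(TPM + 1) minus each gene's mean over the 12 culture libraries (columns, by group and replicate), with Nqo1 and genes of like pattern above the black line and Slc7a11 with ATF4-arm genes below it. The colour scale ends at 3 log2 units. Nqo1-like rows are red in EpiLCs and blue in embryo-derived 3D EpiSCs. Of the ATF4-arm rows, Chac1, Trib3, Atf3 and Atf4 are red in both 3D cultures. Ddit3 and Sesn2 are not red in every 3D library, and Ddit4, which went the other way, is not shown.

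In the embryo, neighbouring stages were tested with limma over 11880 genes, for 8 members, since Slc7a11 was at most 0.492 TPM in all 15 libraries and failed the filter. Hmox1, Txnrd1 and Nqo1 rose and Keap1 fell from E3.5 to E4.5, Hmox1 and Srxn1 fell by E5.5, no member was called at E6.5, and Hmox1 fell again by E7.5. Per the study's methods, the E3.5 ICM was isolated with a laser and the E4.5 epiblast by immunosurgery, trypsin and picking of single cells. Epiblasts from E5.5 on were dissected in enzyme-free buffer. Fragmentation of the RNA also changed between E4.5 and E5.5. Stage and isolation therefore cannot be told apart at E4.5 against either neighbour, nor stage and fragmentation from E4.5 to E5.5.

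Hmox1 held 19.3, 18.8 and 20.1 TPM at E3.5 and 116, 128 and 123 TPM at E4.5, a log2 fold change of 2.59 (SE 0.10, adjusted p = 1.83e-10). At E5.5 it was at 34.7, 34.6 and 37.0 TPM, a change of -1.76 (SE 0.10, adjusted p = 5.54e-09). At E6.5 the libraries held 43.7, 35.4 and 31.1 TPM and at E7.5 17.7, 17.2 and 16.8 TPM. The last change was -1.04 (SE 0.10, adjusted p = 3.15e-06), and -0.91 without E6.5 replicate 1, which is under the fold threshold. Its E4.5 level stood apart from every other stage, near the levels of the 3D cultures by value.

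Markers of other cell types moved over the same steps, and their part in the changes was not tested. The summed trophoblast and extra-embryonic ectoderm markers were 520 to 547 TPM at E3.5, 381 to 410 TPM at E4.5, 13.6 to 15.9 TPM at E5.5, 25.1 to 32.1 TPM at E6.5 and 173 to 184 TPM at E7.5. Of its 6 genes 3 were lower at E4.5 than at E3.5: Cdx2 went from 157 to 168 TPM down to 22.2 to 26.3 TPM, Gata3 from 204 to 220 TPM down to 84.6 to 93.7 TPM and Tfap2a from 98.0 to 108 TPM down to 69.0 to 84.7 TPM. The other 3 were higher: Elf5 went from 47.3 to 53.7 TPM up to 124 to 130 TPM, Krt7 from 5.18 to 6.52 TPM up to 48.4 to 57.3 TPM and Hand1 from 0.923 to 1.56 TPM up to 26.1 to 36.5 TPM. Hand1 was higher still at E7.5, at 77.7 to 84.5 TPM, whereas Elf5 and Krt7 peaked at E4.5. Summed endoderm markers were 413 to 418 TPM at E3.5, 153 to 179 TPM at E4.5, 685 to 740 TPM at E5.5, 1112 to 1143 TPM at E6.5 and 1120 to 1156 TPM at E7.5. Summed blood markers reached 29.1 to 33.2 TPM at E7.5 and were 0 at E4.5. The E3.5 and E4.5 libraries were thus the ones with the most trophoblast marker RNA, and E5.5 had the least.

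Txnrd1 rose from 58.3, 56.3 and 55.3 TPM at E3.5 to 137, 137 and 147 TPM at E4.5, by 1.29 on the log2 scale (SE 0.09, adjusted p = 3.26e-08). It reached 198, 192 and 205 TPM at E5.5, a change of 0.49 (adjusted p = 0.000243) below the fold threshold. Gclc likewise was higher at each of these steps, by 0.59 (adjusted p = 4.42e-05) and 0.86 (adjusted p = 7.98e-07), with 11.1 to 12.8, 17.7 to 21.0 and 33.5 to 35.9 TPM at the 3 stages. The 3 stages did not overlap for either gene.

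Srxn1 was at 4.66, 4.01 and 4.25 TPM at E3.5, 8.43, 10.3 and 7.33 TPM at E4.5 and 2.49, 2.81 and 2.67 TPM at E5.5. It was 0.86 higher on the log2 scale at E4.5 (adjusted p = 0.000827) and fell by 1.40 at E5.5 (SE 0.17, adjusted p = 9.13e-06). From E5.5 onwards all libraries were between 1.13 and 2.81 TPM. Among members, Srxn1 and Hmox1 were those with a peak at E4.5 that cleared both neighbouring stages.

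Keap1 went from 22.2, 23.6 and 20.9 TPM at E3.5 to 8.55, 12.3 and 7.98 TPM at E4.5, a fall of -1.15 (SE 0.15, adjusted p = 2.79e-05), and later libraries held 8.88 to 13.7 TPM. Nfe2l2 was lower at E4.5 (-0.35, adjusted p = 0.0125), with 26.5 to 41.4 TPM over all embryo libraries. The Nqo1 call at E4.5 (1.05, SE 0.35, adjusted p = 0.02) rested on levels near the filter. It was 0.79 without E3.5 replicate 2, 0.94 without E4.5 replicate 1 and 0.74 without E4.5 replicate 2, and had an adjusted p of 0.105 when only these stages were fitted.

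In counts, 3 members were higher and 1 lower at E4.5, against 5.88% and 11.9% of genes. At E5.5 0 were higher and 2 lower, against 14.9% and 9.47%. At E6.5 limma called 0 of 8 members, with 2 at an unadjusted p under 0.05 and 1 at an adjusted one (Gclc, -0.39, adjusted p = 0.00963), against 0.715% of genes higher and 0.48% lower. At E7.5 0 were higher and 1 lower, against 10.6% higher and 1.94% lower. At that last step the median gene rose by 0.31 on the log2 scale, and after rescaling to remove this Hmox1 fell by 1.40 (adjusted p = 6.18e-07).

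**Figure D4:**
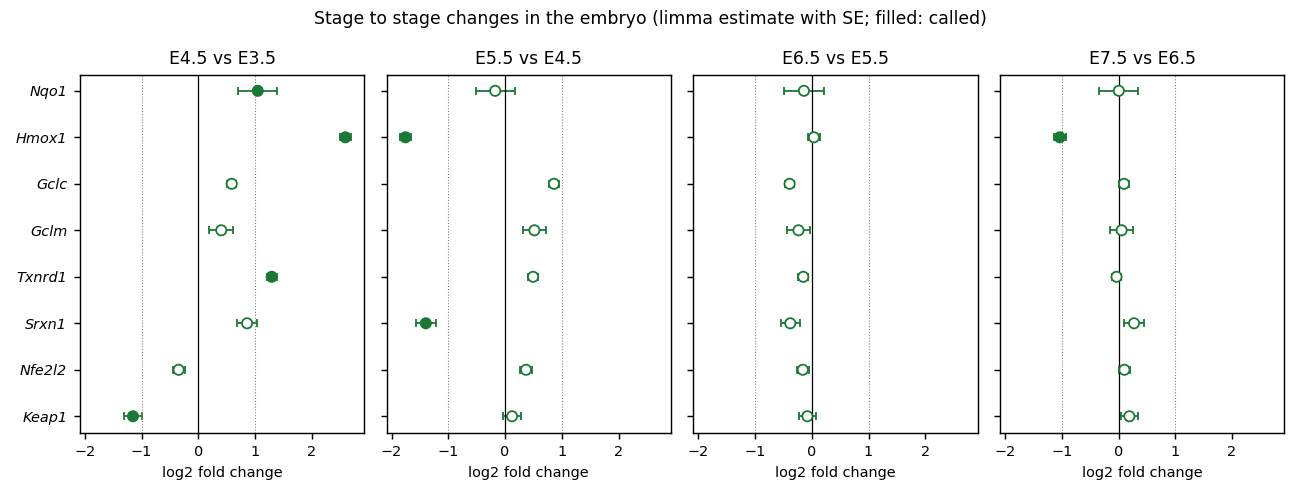
Log2 fold change with SE of 8 members at each of the 4 steps between neighbouring stages, filled where called. Hmox1 is filled at 2.59, -1.76 and -1.04, and no point is filled at E6.5.

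**Figure D5:**
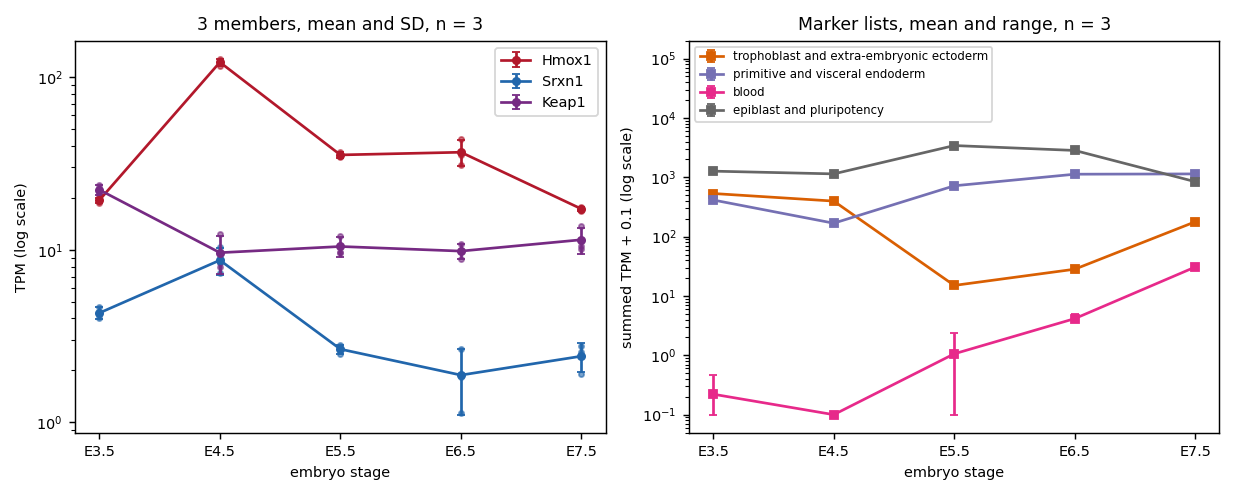
Left, TPM of Hmox1, Srxn1 and Keap1 by stage (log axis, mean with SD, points are libraries). Right, summed TPM of marker lists plus 0.1 (log axis, mean with the range of 3 libraries). Hmox1 and Srxn1 peak at E4.5, and the trophoblast sum is 381 to 410 TPM there and 13.6 to 15.9 TPM at E5.5.

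Of the 89 pathway genes, 81 were tested in the embryo. At E4.5 11 rose and 12 fell, where 5.88% of all genes rose and 11.9% fell. At E5.5 13 rose and 17 fell, against 14.9% and 9.47%. At E6.5 1 fell (Cbr3, -1.36, adjusted p = 0.00526), against 0.715% and 0.48%, and at E7.5 9 rose and 2 fell, against 10.6% and 1.94%. The falls at E4.5, the rises at E5.5 and the counts at the last 2 steps were thus near the share of all genes. At E4.5 Maff rose by 2.92 (adjusted p = 3.65e-08) and Atf3 by 2.31 (adjusted p = 2.59e-09). Osgin1, a growth inhibitor induced by oxidative stress, was 1.76 higher, but passed the filter only through its E4.5 libraries and so had to differ. The repressor Bach1, which competes with NRF2 at the Hmox1 enhancers, fell from 86.2, 110.0 and 77.8 TPM at E3.5 to 20.2, 13.4 and 17.1 TPM at E4.5 (-2.37, adjusted p = 2.21e-08). Btrc, a receptor for NRF2 degradation independent of KEAP1, fell by 2.82 (adjusted p = 5.22e-09). Genes of the glutathione and carbonyl lists fell too, among them Akr1b8 (-2.378, adjusted p = 7.75e-08) and Gsto1 (-2.214, adjusted p = 5.38e-09). Mgst2 went from a mean of 5.885 TPM at E3.5 to 0.001119 TPM at E4.5, and Ephx1 from 6.168 to 0.5422 TPM.

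The glutathione transferases Gsta1 and Gsta2 held 145, 152 and 152 TPM and 57.9, 68.8 and 61.8 TPM at E4.5, rose by 3.70 and 3.61 from E3.5 (adjusted p = 7.62e-14 and 5.37e-11) and were listed at 0 in all E5.5 libraries. They are near-identical paralogs, so the division of reads between them is uncertain. At E5.5 Akr1b8 (-3.96, adjusted p = 2.96e-10), Atf3 (-3.29, adjusted p = 4.35e-11) and Ddit3 (-2.42, adjusted p = 4.20e-07) fell as well, and 4 of 8 ATF4-arm genes fell with none higher. Gstm5 and Gpx3 rose there by 2.81 and 2.26 (adjusted p = 2.76e-07 and 3.12e-09).

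At E7.5 Ddit4 rose by 2.22 (adjusted p = 1.51e-05) and Gpx7 by 2.04 (adjusted p = 0.000516). Blvrb, a flavin and biliverdin reductase, fell by 1.32 (adjusted p = 9.56e-05) together with Hmox1, from 17.0, 17.0 and 20.1 TPM to 7.17, 7.18 and 5.60 TPM. Glrx, a glutaredoxin, fell by 1.28 (adjusted p = 2.52e-06). The rise of Gpx8, 1.50, was lost after rescaling (adjusted p = 0.0513).

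Across the 15 embryo libraries the genes most like Nqo1 of 11879 were Lsm1 (r = 0.83), Rilpl2 (0.82), Gstp1 (0.81), Asnsd1 (0.80) and Atp23 (0.79). Gclm had r = 0.62, Txnrd1 0.58, Hmox1 0.43, Gclc 0.42, Srxn1 0.16, Nfe2l2 -0.11 and Keap1 -0.57. The pathway genes closest to Nqo1 in the cultures were not close in the embryo, with r = 0.21 for Cbr3 and -0.44 for Akr1b8. With Nqo1 at most 3.54 TPM these values rest on low levels, and the points share stages and library preparation.

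Set side by side, embryo libraries held less Nqo1 than 2D EpiSCs, EpiLCs and ESC-derived 3D EpiSCs, and their Txnrd1, Gclc and Nfe2l2 levels were below those of every culture library. Txnrd1 was at most 205 TPM in embryos and at least 330 TPM in cultures, and Gclc at most 35.9 and at least 62.0 TPM. Nfe2l2 was 26.5 to 41.4 TPM in embryos and 47.3 to 82.9 TPM in cultures. Hmox1 at E4.5 lay within the range of the cultures in 2 libraries and above it in the third, at 128 TPM against a highest culture library of 126 TPM, and Keap1, Gclm and Srxn1 ranges overlapped between embryos and cultures. The kit differed between embryos and cultures, and culture and library preparation cannot be told apart here.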

How the data were processed

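RNA-seq of 12 culture and 15 embryo libraries was used. After adapter removal (cutadapt 2.4), alignment to mm10 (STAR) and quantification on GENCODE genes (StringTie), the authors deposited transcript levels as TPM, scaled to the same total in each library. Of 54490 lines, 56 had empty cells, counted as 0. Single-cell and methylation samples of the series were not analysed here.

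Groups followed the labels. Values were tested as log2(TPM + 1) with limma 3.58.1 (R 4.3.3, lmFit and eBayes without trend, two-sided), the 4 culture groups in 1 fit and the 5 stages in another. Only autosomal protein-coding genes above 2 TPM in at least 3 libraries of the fit entered (11541 and 11880), and p-values were adjusted by Benjamini-Hochberg over them. Calls needed an adjusted p under 0.05 and an absolute log2 fold change over 1. The log2 scale with a pseudocount understates changes of low genes. Comparisons among 2D and 3D EpiSCs, and Nqo1 in all culture comparisons, have no test, since Nqo1's levels there chose the members, nor does Slc7a11, which entered the culture fit only through 3D libraries. The script was checked on simulated data.

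The members and lists were chosen with earlier results of these data known. All members are named. Of other pathway genes, up to 6 per direction and comparison with the largest log2 difference could be named, as could the 5 genes most like Nqo1 in Pearson r. Genes added after their values were seen were Ftl1-ps1 and Ftl1-ps2, the marker genes, and per-library values of Asns and Ddit3. Replicates lying close together were kept as separate libraries and averaged in an alternative. Alternatives were a pseudocount of 0.1, no filter, all gene types, median-of-ratios rescaling, only the compared groups, an eBayes trend, a replicate block and leaving out each library. Pathway values without ESC-derived replicate 3, and member counts without Slc7a11, were added after seeing the data. Averaging, fits of only the compared groups and left-out libraries kept the gene set of the full fit. Same-numbered libraries of different groups did not deviate together (mean r = -0.03 in 18 culture pairs and -0.02 in 30 embryo pairs), so numbers were not taken to pair samples.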

Additional observations from a re-analysis of the deposited data

Results flagged for a closer look

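In 4 pathway genes every library of ESC-derived 3D EpiSCs lay on the opposite side of the mean of a reference culture from every library of embryo-derived 3D EpiSCs. These are the named ones among 7 of 79 pathway genes for 2D EpiSCs and 5 of 79 for EpiLCs, where 8.06% and 4.94% of all 11541 genes did the same. The counts were near these shares, and nothing is read from them. Of the 9 members 0 met this rule. For 2D EpiSCs Nqo1 missed it because ESC-derived replicate 3, at 10.27 TPM, lay below the 2D EpiSC mean of 10.37 TPM. The difference of the 4 genes between the 3D cultures was not tested, and origin and mouse line cannot be told apart in it. Gpx3 differed by 3.90 on the log2 scale between the 3D cultures, being 0.27 above the 2D EpiSC mean in ESC-derived cultures and at -3.63 from it in embryo-derived ones, and the ESC-derived libraries overlapped the 2D ones. Akr1b8 differed by 1.91 (1.07 and -0.84 from 2D EpiSCs) and Cbr1 by 0.55 (0.25 and -0.30). Ftl1 differed by -1.57 (-0.17 and 1.39 from EpiLCs), and its near-identical copies can take its reads, which were not measured apart.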

How the results depend on the processing

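Reads per library are not in the table, so counting error is not covered, and Nqo1 and Slc7a11 are near the filter in embryos. Of the counts of members and pathway genes, 194 recomputed values stayed on the same side and 21 changed. Averaging close replicates gave 1 member over 1 log2 unit in ESC-derived against 2D EpiSCs and 1 against embryo-derived 3D EpiSCs, 1 called in ESC-derived 3D EpiSCs against EpiLCs and 2 in embryo-derived ones. All these counts against EpiLCs include Slc7a11, from which nothing is read there. A pseudocount of 0.1 gave 1 called member in 2D EpiSCs against EpiLCs (Slc7a11, -1.21), 2 in embryo-derived 3D EpiSCs (Keap1 added, 1.05) and 3 pathway genes at E6.5. Leaving out each library in turn gave 1 to 3 members for each of the comparisons of ESC-derived with 2D and with embryo-derived cultures, 1 to 2 against EpiLCs in each 3D culture, 1 to 2 pathway genes at E6.5 and 0 to 1 members at E7.5. The count is 3 without ESC-derived replicate 3, which lets Nqo1 separate from 2D EpiSCs, or without embryo-derived replicate 1, which lets Slc7a11 separate between the 3D cultures. The cause of the other changes was not tested.

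The replicate block did not change any of the 14 tested counts (pathway genes 20, 14 and 24 in the cultures, 23, 30, 1 and 11 in the embryo, and members 0, 2, 1, 4, 2, 0 and 1). Rescaling moved the split of all calls from 1756 higher and 593 lower to 1367 and 754 for 2D EpiSCs against EpiLCs, and from 1265 and 231 to 688 and 410 at E7.5.

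The sign of 23 values near 0, none of them called, reversed. Averaging close replicates gave 0.0063 for Gclc in 2D EpiSCs against EpiLCs. Rescaling gave -0.024 for Gclc in embryo-derived 3D EpiSCs against EpiLCs, -0.0053 for Keap1 at E5.5 and, at E7.5, -0.21 for Nqo1, -0.28 for Gclc (adjusted p = 0.0109), -0.32 for Gclm, -0.27 for Nfe2l2 and -0.16 for Keap1. The others came from leaving out a library, where the lowest and highest values spanned 0. Against EpiLCs these were -0.11 and 0.056 for Gclc in 2D EpiSCs, and -0.010 and 0.16 for Gclc and -0.18 and 0.046 for Gclm in embryo-derived 3D EpiSCs. For Nqo1 they were -0.59 and 0.14 at E5.5, -0.27 and 0.040 at E6.5 and -0.22 and 0.16 at E7.5. They were -0.091 and 0.15 for Hmox1 and -0.14 and 0.021 for Keap1 at E6.5, and -0.15 and 0.16 for Gclm and -0.11 and 0.061 for Txnrd1 at E7.5.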
